A study of Mus musculus with 6 samples.

Results

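The genes described here encode the PIX, GIT and PAK proteins and the GTPase Rac1, a signalling module that the polarity scaffold Scrib recruits to the cell cortex. The members were chosen by symbol, and all 8 (Arhgef7, Arhgef6, Git1, Git2, Pak1, Pak2, Pak4 and Rac1) were found once each among the 54453 genes of the count tables. All 8 also passed the low-count filter, which kept 14169 genes for testing. RNA was sequenced from mouse pancreatic tumour organoids, which are epithelial cultures grown in Matrigel, a gel of extracellular matrix. The 3 lines T91, T113 and T118 carried a hairpin RNA that targets either Scrib (Scrib shRNA) or, as the control, Renilla luciferase (Renilla shRNA), a sequence that mouse cells lack. Each line gave 1 library per hairpin, so each group held 3 libraries, and all 6 libraries share the genotype KPF/FC, which the labels do not spell out. The donor of T91 was female and those of T113 and T118 male, and the lines were at passage 10, 13 and 11 in that order with either hairpin. The labels speak both of viral infection and of transfected plasmids, and only 1 Scrib hairpin was used, so effects of that hairpin on other transcripts cannot be told apart from effects of Scrib loss.

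As background, Scrib binds through its PDZ domains to the carboxyl terminus of the PIX exchange factor encoded by Arhgef7. PIX proteins load Rac1 and Cdc42 with GTP and bind both the GIT scaffolds and the PAK kinases, so that the activator, the scaffold and the effector of Rac1 sit in one complex. In epithelial cells the complex is known for placing Rac1 and PAK activity at cell junctions and at focal adhesions, where it acts on actin and on cell migration.

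The depth was 24035559 to 36235773 estimated counts per library, and 1 count was worth 0.0269 to 0.0421 CPM, the count scaled to library size. The TMM method set that scale, with factors from 0.977 to 1.03. The target checked the labels. Scrib stood at 29.7 CPM in T91, 35.0 CPM in T113 and 30.0 CPM in T118 with the Scrib hairpin, against 177, 157 and 158 CPM with the Renilla hairpin in the same lines, a log2 fold change of -2.38 ± 0.12 (standard error, as after each fold change below). All 9 epithelial and ductal markers examined were above 10 CPM in every library, and their summed level was 7650 to 10800 CPM with the Scrib hairpin and 8370 to 13400 CPM with the Renilla hairpin. Summed markers of fibroblasts, immune cells, endothelium, acinar and endocrine cells, and neural and Schwann cells reached at most 7.78 CPM per list in any library. Ins1, Ins2, Prss1, Amy2b, Lum and Sox10 were at 0 counts throughout.

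Of the paralogous PIX genes, Arhgef7 was expressed at a steady level while Arhgef6 was scarce in all lines, though less so in T118. Their promoters are shown because they differ in the density of CpG dinucleotides, so the pair was picked for that difference. Whether CpG count goes with the level of a gene was not tested. The sequences are the 250 bases before the most upstream start that RefSeq annotates (build GRCm38.p6), 5′ to 3′ on the gene's own strand, with each CpG in capitals. The Arhgef7 window is chr8:11727808-11728057 on the plus strand and the Arhgef6 window is chrX:57338730-57338979 on the minus strand. In the GENCODE gene annotation Arhgef7 begins at 11727721, so its window lies inside the gene. The Arhgef6 window lies just outside its gene in that annotation.
Arhgef7: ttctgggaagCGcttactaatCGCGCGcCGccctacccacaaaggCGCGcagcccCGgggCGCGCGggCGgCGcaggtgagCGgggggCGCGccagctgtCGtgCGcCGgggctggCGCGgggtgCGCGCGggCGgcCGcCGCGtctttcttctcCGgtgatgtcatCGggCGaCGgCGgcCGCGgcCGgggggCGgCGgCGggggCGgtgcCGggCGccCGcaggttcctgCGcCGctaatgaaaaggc
Arhgef6: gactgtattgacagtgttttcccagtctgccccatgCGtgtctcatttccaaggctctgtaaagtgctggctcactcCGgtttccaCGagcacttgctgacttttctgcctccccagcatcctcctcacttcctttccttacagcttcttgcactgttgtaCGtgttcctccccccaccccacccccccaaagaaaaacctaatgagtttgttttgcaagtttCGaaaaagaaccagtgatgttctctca

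The Arhgef7 window held 45 CpG dinucleotides and the Arhgef6 window 5, where CG was searched as 2 letters that read the same on both strands. Over the 32851 promoter windows of the table the median was 6, and 0.405% of windows held at least 45 while 55.6% held at least 5. Other annotated starts of the same genes differ, with 30 and 2 CpG dinucleotides before the other Arhgef7 starts and 8 before the other Arhgef6 start. Gene-level counts do not tell which start was used. Entries for 6 of the 8 members were found. The windows of Pak4 held 19 CpG dinucleotides, of Git1 26 and 38, of Pak1 29 and 7, and of Git2 13.

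Levels can be compared between genes only per length, here as CPM per kilobase of the principal transcript. Rac1, the GTPase itself, was the most abundant member at 102 CPM per kb (range over the 6 libraries 88.4 to 112). Pak4, a kinase that binds Cdc42, followed at 60.7 (57.6 to 65.7). Pak2, a kinase activated by Rac1 and Cdc42, stood at 34.6 (27.5 to 39.5) and Git1, a GIT scaffold and Arf GTPase-activating protein, at 32.9 (29.4 to 35.2), so the ranges of Pak2 and Git1 overlapped.

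Arhgef7 averaged 16.1 CPM per kb (15.3 to 17.3), Pak1, the paralogue of Pak2, 15.1 (11.2 to 17.4), and Git2, the paralogue of Git1, 13.6 (12.4 to 15.1). The ranges of Arhgef7 and Pak1 overlapped, as did those of Pak1 and Git2, whereas Git2 stayed below every Arhgef7 library. Arhgef6 came last at 0.477 CPM per kb (0.0499 to 1.55). On the same scale Scrib stood at 5.31 to 6.25 CPM per kb with the Scrib hairpin and 28.1 to 31.6 with the Renilla hairpin. With merged exon lengths in place of the principal transcript, Pak1 came before Arhgef7, and the other places in the order were kept. Among the 12252 genes tested that have an annotated principal transcript, 94.4% had a mean level per kilobase below that of Rac1, 61.7% below that of Arhgef7 and 8.19% below that of Arhgef6.

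**Figure D1:**
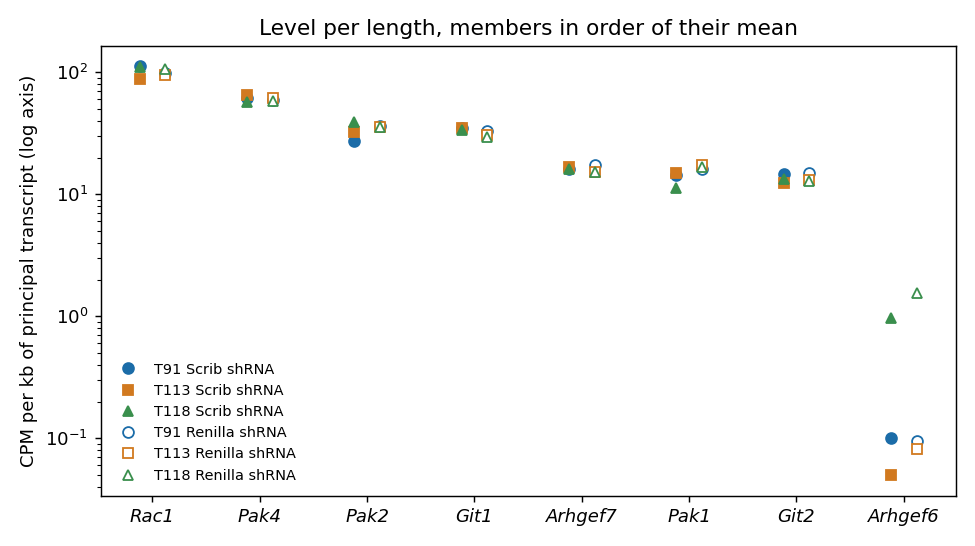
Level of each member in CPM per kilobase of principal transcript (vertical log axis), in order of the mean over 6 libraries. Filled symbols are Scrib shRNA libraries, open symbols Renilla shRNA libraries, and the symbol's shape gives the line. The 7 members other than Arhgef6 lie between 11.2 and 112 CPM per kb, and Arhgef6 lies between 0.0499 and 1.55, with both T118 libraries highest.

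The first comparison asked whether the transcripts of the module change when Scrib is depleted. No member passed the test. Arhgef7, Git2, Pak4 and Rac1 differed little between the hairpins on average, Pak1 was lower and Git1 higher with the Scrib hairpin in each line without passing, and Pak2 differed in direction between lines. Counts of members are read against all 14169 genes, of which 0.00706% passed at an adjusted p under 0.05 by the quasi-likelihood test of edgeR, adjusted after Benjamini and Hochberg, namely Scrib alone. In bulk libraries, fewer cells of a type and less RNA per cell cannot be told apart. The p-values for the hairpin rest on how far the differences within lines disagree among 3 tumour lines, each sampled once per hairpin. They also rest on a variance estimate shared with other genes (2 residual and 4.43 prior degrees of freedom).

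Arhgef7, the exchange factor that binds Scrib, stood at 72.1 CPM in T91, 74.2 CPM in T113 and 71.1 CPM in T118 with the Scrib hairpin, against 77.0, 68.1 and 68.6 CPM with the Renilla hairpin in the same lines. The highest of the 6 libraries was 1.13 times the lowest, and the groups overlapped. The fitted log2 fold change was 0.03 ± 0.10, and its 95% interval of -0.20 to 0.26 spans 86.9% to 119% of the Renilla level. The adjusted p was 0.964 by edgeR's test.

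Arhgef6, the second PIX gene, stood at 0.463 CPM in T91, 0.228 CPM in T113 and 4.47 CPM in T118 with the Scrib hairpin, against 0.436, 0.377 and 7.10 CPM with the Renilla hairpin. In T91 and T113 these levels rest on 7 to 14 counts per library. In T118 they rest on 122 counts with the Scrib hairpin (exact Poisson 95% interval 101 to 146, covering counting error only) and 208 with the Renilla hairpin (181 to 238). Within T91, T113 and T118 the log2 ratios were 0.09, -0.73 and -0.67. As fitted, the log2 fold change was -0.48 ± 0.30 (95% interval -1.20 to 0.24, adjusted p of 0.789 by edgeR's test).

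Of the scaffolds, Git1 stood at 123, 124 and 119.5 CPM in T91, T113 and T118 with the Scrib hairpin, against 117, 107 and 103 CPM with the Renilla hairpin. It was higher with the Scrib hairpin in all 3 lines, and the groups did not overlap. Of all genes tested, 14.7% were higher in all 3 lines and 2.6% were higher with no overlap between the groups. Over the 3 lines the log2 fold change was 0.16 ± 0.09 (95% interval -0.06 to 0.38), with an unadjusted p of 0.119 and an adjusted p of 0.783 by edgeR's test.

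Git2, which shares the Arf GTPase-activating domain of Git1, stood at 43.5, 37.1 and 39.6 CPM in T91, T113 and T118 with the Scrib hairpin, against 45.2, 38.8 and 38.5 CPM with the Renilla hairpin. The groups overlapped, and the T91 libraries were the highest of each. The fitted log2 fold change was -0.02 ± 0.09 (95% interval -0.25 to 0.20, adjusted p of 0.964 by edgeR's test). Per length of the principal transcript, Git1 was 2.39 to 2.83 times Git2 in Scrib hairpin libraries and 2.19 to 2.34 times in Renilla hairpin libraries. The size of this ratio depends on the length used. With merged exon lengths the means were 23.9 CPM per kb for Git1 and 2.33 for Git2. This ratio was formed after the values were seen and was not tested.

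Of the kinases, Pak1 stood at 44.2, 45.6 and 34.2 CPM in T91, T113 and T118 with the Scrib hairpin, against 49.2, 53.3 and 51.2 CPM with the Renilla hairpin. It was lower with the Scrib hairpin in all 3 lines with no overlap between the groups, and the T118 library with the Scrib hairpin was the lowest of all. Within T91, T113 and T118 the log2 ratios were -0.16, -0.22 and -0.58. Of all genes tested, 15.4% were lower in all 3 lines and 2.14% were lower with no overlap.

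The log2 fold change of Pak1 was -0.32 ± 0.12, and its 95% interval of -0.60 to -0.04 spans 66.0% to 97.2% of the Renilla level. Its unadjusted p was 0.0308 and its adjusted p 0.748 by edgeR's quasi-likelihood test, so it did not pass. Pak1 was the 1 member of 8 with an unadjusted p under 0.05, where 5.06% of all genes had one and were lower and 1.55% had one and were higher. Without T118 the log2 fold change was -0.19 with an unadjusted p of 0.178 by edgeR's test, and without T113 it was -0.37 with one of 0.0975. Without T91 it was -0.40 with an unadjusted p of 0.00824 and an adjusted p of 0.153 by edgeR's test.

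Pak2 stood at 158, 188 and 227 CPM in T91, T113 and T118 with the Scrib hairpin, against 208, 204 and 206 CPM with the Renilla hairpin. The Renilla hairpin libraries lay close together (206 ± 1.80 CPM), while the Scrib hairpin libraries were spread on both sides of them (191 ± 34.4 CPM, SD, n = 3 each). Within T91, T113 and T118 the log2 ratios were -0.40, -0.12 and 0.14. As fitted, the log2 fold change was -0.13 ± 0.12 (95% interval -0.42 to 0.17, adjusted p of 0.839 by edgeR's test). Whether the hairpin effect differs between lines was not tested, since each line has 1 library per hairpin.

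Pak4 stood at 179, 191 and 167 CPM in T91, T113 and T118 with the Scrib hairpin, against 171, 178 and 169 CPM with the Renilla hairpin. The groups overlapped, and the log2 fold change was 0.05 ± 0.09 (95% interval -0.17 to 0.26, adjusted p of 0.924 by edgeR's test). The level per kilobase summed over Pak1, Pak2 and Pak4 was 103.7 to 113.3 with the Scrib hairpin and 111 to 114.5 with the Renilla hairpin. Pak1 made up 13.9%, 13.1% and 10.3% of that sum in T91, T113 and T118 with the Scrib hairpin, against 14.4%, 15.2% and 15.1% with the Renilla hairpin. These shares were formed after the values were seen and were not tested.

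Rac1 stood at 466, 368 and 458 CPM in T91, T113 and T118 with the Scrib hairpin, against 415, 393 and 444 CPM with the Renilla hairpin. The groups overlapped, and the T113 libraries were the lowest of each. Over the 3 lines the log2 fold change was 0.04 ± 0.10 (95% interval -0.19 to 0.27, adjusted p of 0.942 by edgeR's test). The Rac1 gene shares 2309 exonic bases with Daglb on the other strand, and 50.7% of the 31-base words in Rac1 transcripts also occur in Daglb transcripts when both strands are read. The strand setting of the counting is not given in the sources used here, so reads of this stretch may not have been told apart. Daglb itself stood at 15.9 to 26.0 CPM over the 6 libraries, a value that rests on the same assignment of reads. How many Daglb reads were counted for Rac1 was not tested.

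**Figure D2:**
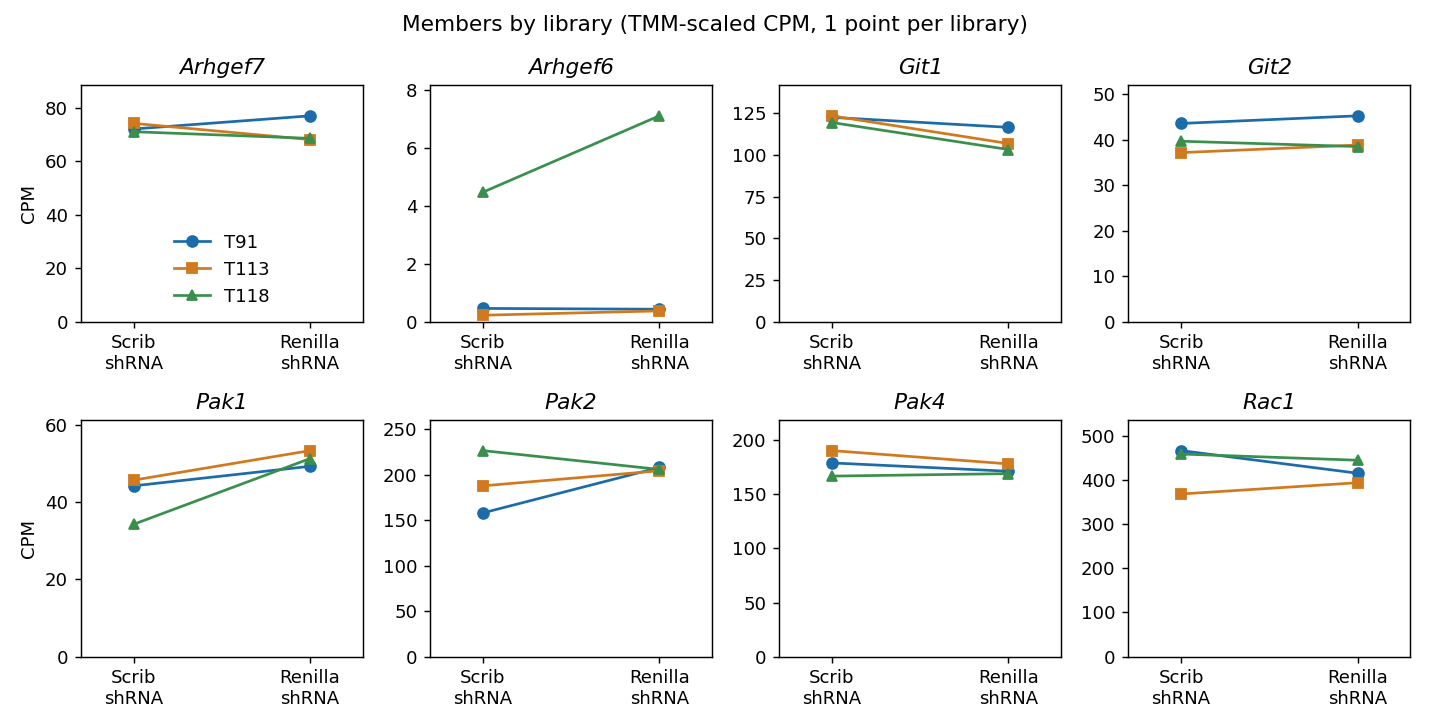
CPM of each member (vertical axes from 0) in Scrib shRNA and Renilla shRNA libraries, 1 point per library, with a line joining the libraries of 1 organoid line. Pak1 slopes the same way in all 3 lines, between 34.2 and 45.6 CPM with the Scrib hairpin and between 49.2 and 53.3 CPM with the Renilla hairpin, and Arhgef6 is high only in T118.

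**Figure D3:**
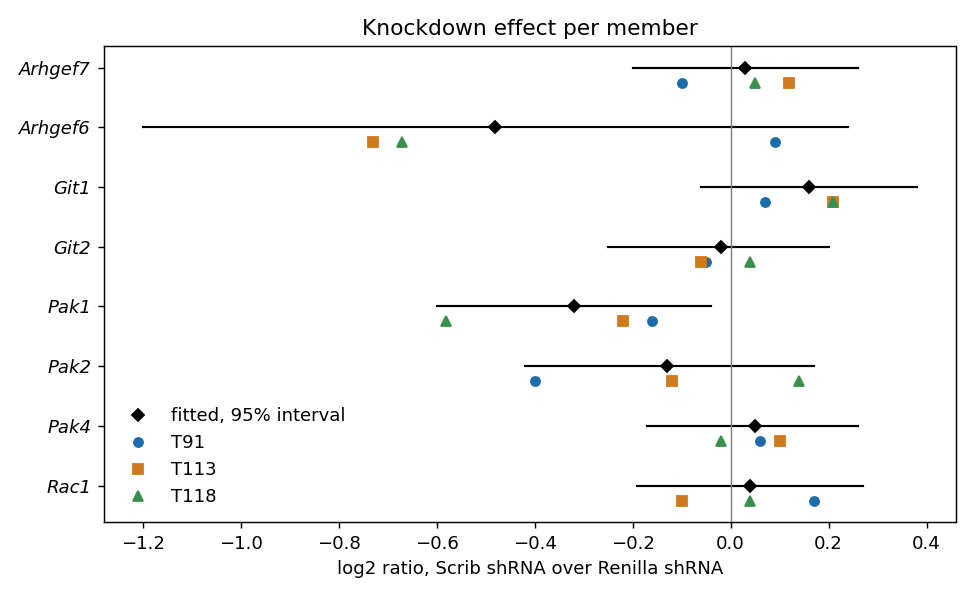
Log2 ratio of Scrib shRNA over Renilla shRNA for each member. Black diamonds and bars are the fitted value and its 95% interval, and coloured symbols are the ratios within each line. The interval of Pak1, from -0.60 to -0.04, is the one that does not include 0 before adjustment over all genes.

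The 8 members were lower in 4 cases and higher in 4, with a median log2 fold change of 0.00, beside -0.01 over all genes tested. Of the 31-base words of each member's transcripts, 51.3% for Rac1 and at most 5.53% for any other member also occurred in transcripts of other genes. Whether reads were assigned to the wrong gene was not tested. Pak4 shares 39 exonic bases with Samd4b on the same strand.

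The second comparison asked how the members differ between the tumour lines. Arhgef6 differed between lines, and no other member passed. Of all genes tested, 14% passed edgeR's F-test of both line terms at the adjusted threshold of 0.05, and 1 of 8 members (12.5%) did. Averaged over the hairpins, Arhgef6 stood at 0.449 CPM in T91, 0.303 CPM in T113 and 5.78 CPM in T118, with an adjusted p of 0.00143 by that test. Both T118 libraries lay above all 4 others.

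In T118 the Arhgef6 level was 12.6-fold higher than in T91 (log2 difference 3.65, standard error 0.37, 95% interval 2.77 to 4.53, adjusted p of 0.00236 by edgeR's test), a contrast in which 11% of all genes passed. It was 18.7-fold higher in T118 than in T113 (log2 difference 4.23, standard error 0.37, 95% interval 3.32 to 5.13, adjusted p of 0.00232 by edgeR's test), where 10.2% of genes passed. T113 and T91 did not differ beyond their error (log2 difference -0.57, standard error 0.42, adjusted p of 0.52 by edgeR's test), in a contrast where 6.06% of genes passed. Arhgef6 lies on the X chromosome, from 57231485 to 57338729 on the minus strand in GRCm38. The donor of T91 was female and those of T113 and T118 male. The 18.7-fold difference above therefore lies between lines of male donors. Only T91 had a female donor, so donor sex cannot be told apart from that line, and its part was not tested. Per length, Arhgef7 was 160, 334 and 16.3 times Arhgef6 in T91, T113 and T118 with the Scrib hairpin, against 181, 185 and 9.92 times with the Renilla hairpin. In T91 and T113 the ratios rest on 7 to 14 Arhgef6 counts per library, so they are imprecise. No difference of these ratios between hairpins was tested. These ratios use the principal transcript, with means of 16.1 and 0.477 CPM per kb. With merged exon lengths the means were 4.56 and 0.255 CPM per kb.

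Arhgef6 is known from blood cells, and 8 immune marker genes were examined. Their sum was 2.31 to 6.27 CPM with the Scrib hairpin and 3.45 to 4.78 CPM with the Renilla hairpin. Most of it was Cd68 (2.08 to 4.06 CPM). These ranges do not show which line was highest. Arhgef6 itself stood at 4.47 and 7.10 CPM in T118. The CPM of a single gene and a CPM sum over genes of other lengths cannot be compared directly. The part of immune cells in the Arhgef6 level was not tested. Rac2, Vav1 and Arhgdib, blood-cell members of the same signalling pathway, were at most 0.134, 0.0841 and 0.0421 CPM in any library. They were named after their values were seen. Prex1, an exchange factor of that pathway, stood at 2.96 and 4.98 CPM in T118, against 1.09 to 2.01 CPM in T91 and T113. What these levels mean for blood cells was not tested.

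The other 7 members varied by at most 1.56-fold between the highest and lowest of the 6 libraries. Their adjusted p for the lines ran from 0.33 for Rac1 to 0.807 for Arhgef7 by edgeR's F-test. Rac1 averaged 451 CPM in T118, 440 CPM in T91 and 381 CPM in T113, and Pak2 averaged 216 CPM in T118, 196 CPM in T113 and 183 CPM in T91.

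Arhgef6 had the largest spread of log2 CPM over the 6 libraries (SD 1.95, against 0.07 to 0.23 for the other members). Among 10447 other genes with an average log2 CPM of at least 2, the profiles of Naip1 and Gm3776, each centred on its own mean, were among the 3 most like it. Likeness was the root mean square difference over the 6 libraries, which share 3 lines, and it was 0.30 for Naip1 and 0.56 for Gm3776 on the log2 scale.

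Naip1, an inflammasome receptor of the NAIP family, stood at 3.15, 2.83 and 41.1 CPM in T91, T113 and T118 with the Scrib hairpin, against 3.35, 3.88 and 79.2 CPM with the Renilla hairpin. Gm3776 stood at 35.5, 46.5 and 330 CPM with the Scrib hairpin, against 30.6, 70.7 and 643 CPM with the Renilla hairpin. The shared height in T118 follows from how these genes were chosen. Naip1 was below a log2 CPM of 2 in every T91 and T113 library, so its average passed that minimum through T118 only. Both genes' values are uncertain, since 44.3% of the 31-base words of Naip1 and 95.6% of those of Gm3776 also occur in other genes, mostly other Naip genes and Gsta1.

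**Figure D4:**
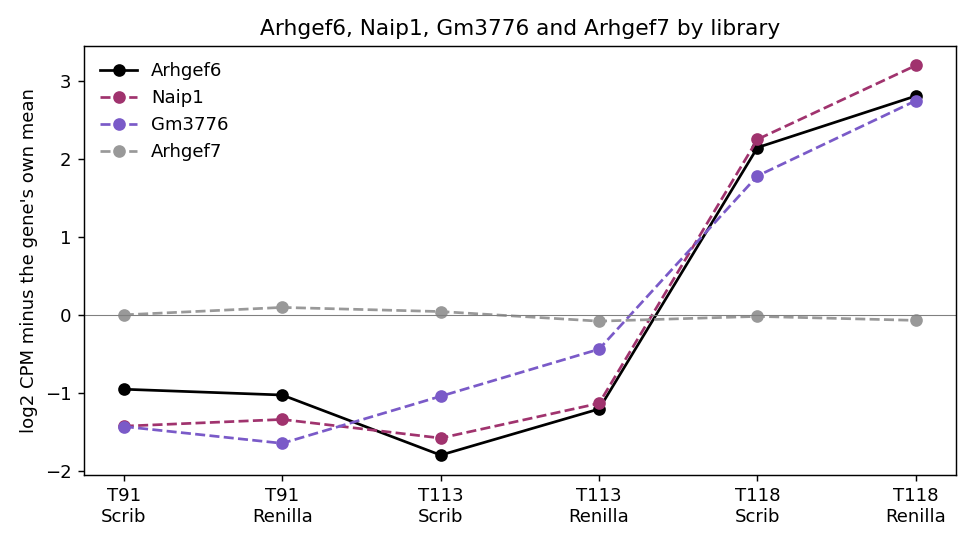
Log2 CPM minus the gene's own mean in the 6 libraries for Arhgef6, Naip1, Gm3776 and Arhgef7. Lines only join values of 1 gene. Arhgef6, Naip1 and Gm3776 are high in both T118 libraries, and Arhgef7, with an SD of 0.07, stays near 0.

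The rest of the pathway was described by 5 lists, from adaptors to the actin machinery downstream. No gene of any list passed over all genes tested by edgeR's test, and 6 of their 75 tested genes (8%) had an unadjusted p under 0.05, beside 6.61% of all genes tested. The tallies below stand beside 51.8% lower among all genes tested (7339 of 14169), and counts between lines beside the 14% of all genes that differed. Where genes are named below, they are those with the smallest p of their list, and all values are log2 fold changes with their standard errors unless CPM is written.

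Adaptors and partners of the module had all 14 genes past the filter, 11 lower and 3 higher, with a median of -0.07 and none with an unadjusted p under 0.05. Within T91, T113 and T118 the median ratios were -0.15, -0.05 and 0.04, and the fitted median without T91 was 0.00. Pxn, which encodes the focal adhesion adaptor paxillin that GIT proteins bind, had a log2 fold change of -0.13 (0.09). Nck2, an adaptor that links PAK to receptors, had one of -0.14 (0.10), and Ppm1e, a phosphatase that acts on PAK, one of -0.51 (0.44) at 0.505 CPM with the Scrib hairpin and 0.704 CPM with the Renilla hairpin. None of the 14 differed between lines by edgeR's F-test.

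PAK substrates toward actin and MAPK signalling had 16 of 16 genes past the filter, 9 lower and 7 higher, with a median of -0.02. Aurka, a mitotic kinase that PAK1 can phosphorylate, had a log2 fold change of 0.27 (0.09, unadjusted p of 0.0206 by edgeR's test), and Stmn1, which encodes the microtubule regulator stathmin, one of 0.22 (0.09, unadjusted p of 0.0395). Both were higher with the Scrib hairpin in all 3 lines. Map2k1, the MAPK kinase MEK1, had a log2 fold change of -0.19 (0.10). Of the 16, 3 (18.8%) differed between lines by edgeR's F-test, namely Stmn1, Mylk and Limk2.

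Rac and Cdc42 exchange factors had 22 of 23 genes past the filter, 18 lower and 4 higher, with a median of -0.12. Within T91, T113 and T118 the median ratios were -0.38, 0.02 and 0.05, and the fitted median without T91 was 0.02. Prex1, a Rac exchange factor controlled by phosphoinositides and G proteins, had a log2 fold change of -0.72 (0.23, unadjusted p of 0.0192 by edgeR's test). It stood at 1.09, 1.302 and 2.96 CPM in T91, T113 and T118 with the Scrib hairpin, against 2.01, 1.91 and 4.98 CPM with the Renilla hairpin. Tiam2 had a log2 fold change of -0.37 (0.13, unadjusted p of 0.0288 by edgeR's test) and Dock4 of -0.39 (0.17). Of the 22, 5 (22.7%) differed between lines by edgeR's F-test, beside 14% of all genes.

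Rac GTPase-activating proteins and GDI chaperones had 12 of 15 genes past the filter, 9 lower and 3 higher, with a median of -0.11 that was -0.06 without T91. Abr, which inactivates Rac, had a log2 fold change of -0.39 (0.11, unadjusted p of 0.0112 by edgeR's test) and was lower with the Scrib hairpin in all 3 lines. Arhgap22 had one of -0.72 (0.33), and Racgap1, a GTPase-activating protein of cytokinesis, one of 0.17 (0.09). In this list 4 of 12 genes (33.3%) differed between lines by edgeR's F-test, Abr among them, beside 14% of all genes.

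The WAVE complex and other Rac effectors had 11 of 13 genes past the filter, 9 lower and 2 higher, with a median of -0.10 that was -0.03 without T91 and -0.17 without T118. Baiap2l1, a membrane-bending protein that links Rac to actin, had a log2 fold change of -0.38 (0.11, unadjusted p of 0.0111 by edgeR's test). It stood at 80.3 ± 0.55 CPM with the Scrib hairpin and 105 ± 13.6 CPM with the Renilla hairpin (SD, n = 3 each), and it was lower in all 3 lines. Wasl, which encodes N-WASP, had a log2 fold change of -0.28 (0.14) and Wasf2, the WAVE2 subunit, of -0.18 (0.10). None of the 11 differed between lines by edgeR's F-test.

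**Figure D5:**
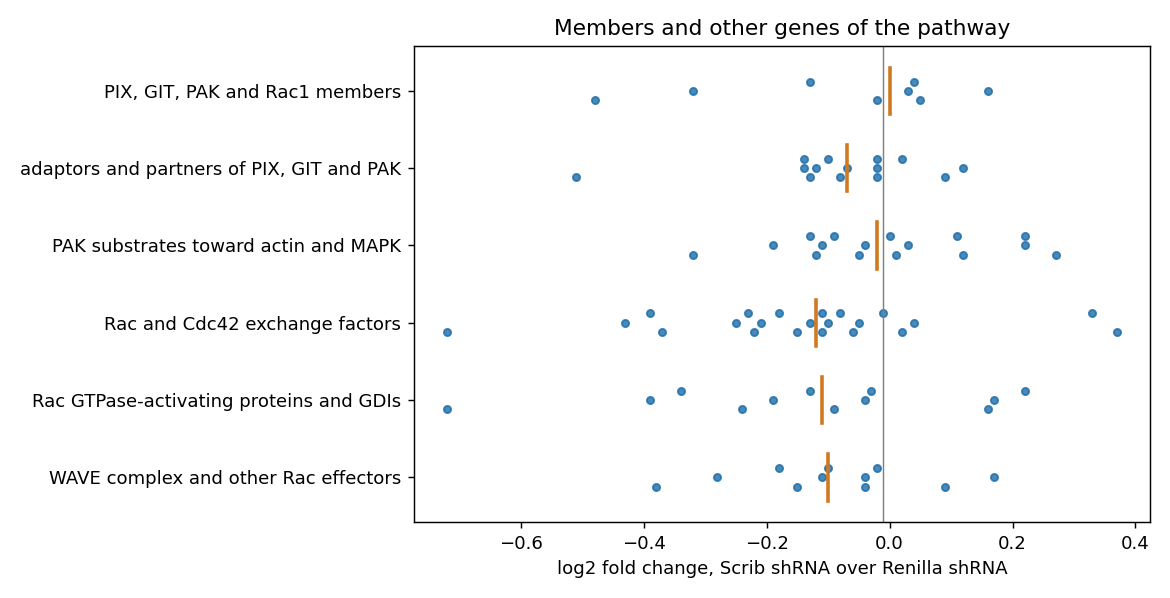
Log2 fold change of Scrib shRNA over Renilla shRNA for each gene past the filter, by list (rows). Orange bars are list medians, from -0.12 to 0.00, and the grey line is the median of all genes tested, -0.01.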

How the data were processed

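The deposited tables hold estimated counts per Ensembl gene, 1 library each, which the authors did not scale for depth. The submitters' processing notes name Salmon 1.4.0, DESeq 2 and build GRCm38. The transcript annotation, strand setting and trimming are not stated by the sources in hand. Symbols came from a GENCODE annotation of GRCm38, and 54131 of 54453 identifiers matched.

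Counts were rounded, filtered with filterByExpr (minimum count 10), scaled by TMM and tested with edgeR 4.0.16 in R 4.3.3 (robust quasi-likelihood F-test, terms for line and hairpin, two-sided, Benjamini-Hochberg over 14169 genes, threshold 0.05). The fit left 2 residual degrees of freedom and added 4.43 prior ones. The line is the pairing, since both hairpins went into the same line, and the paired libraries deviated together from the hairpin means, correlating at 0.621 to 0.666 across genes. The code was tested on simulated data. Alternatives used limma 3.58.1 and DESeq2 1.42.0. The members, lists and tests were chosen with earlier results of these data known. Named genes are the members, Scrib, up to 3 genes per list by smallest p, and the 3 genes most like the most variable member. Other genes were named after their values were seen, such as Daglb, Rac2, Mylk and Limk2. A gene and a list that this rule would name are not reported here.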

Additional observations from a re-analysis of the deposited data

How the results depend on the processing

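No member passed the adjusted threshold for the knockdown under any of the 17 alternatives, and Scrib passed under each (log2 fold change from -2.48 to -2.28). Of 135 values of member knockdown effects under alternatives, 127 kept their direction. These values are not all separate checks, since leaving out 1 library of a line gave nearly the same fold changes as leaving out that line. The other 8 values came from leaving out a library or line, where the fold changes lay close to 0. Over those settings the log2 fold change ran from -0.02 to 0.09 for Arhgef7, from -0.26 to 0.01 for Pak2 and from -0.04 to 0.11 for Rac1. Single values with the other sign were -0.02 for Arhgef7 without T113, 0.01 for Pak2 without T91 and -0.03 for Rac1 without T91 (-0.04 without its Scrib hairpin library). Pak1 ran from -0.41 to -0.19 (lowest adjusted p of 0.121 by edgeR's test, without the Scrib hairpin library of T91). The count of members with an unadjusted p under 0.05 was 0 without the line term, that is with no replicate block, and 0 to 2 when a library or line was left out, with Git1 added without T91 or its Renilla hairpin library. Genes called over the whole table numbered 1 with the line term and 1 without it, 64 without the low-count filter, 63 by DESeq2, 8 by limma-voom and 9 to 214 when a line or library was left out.

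Arhgef6 is not in the stricter filter (average CPM of at least 5), so the count of members differing between lines was 0 there. It was 0 to 1 when a line or library was left out, with 0 when both T118 libraries were missing. For the lists, the median of Rac GTPase-activating proteins and GDIs was -0.21 without the low-count filter. When a line or library was left out it ran from -0.13 to -0.06, that of PAK substrates from -0.05 to 0.03 and that of the WAVE list from -0.17 to -0.03. The unscaled CPM and the merged exon length were added after seeing the data. With 3 lines, changes smaller than the intervals given for each member could not be told from 0, and Arhgef6 in T91 and T113 is limited by its counts.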
